A study of Mus musculus with 8 samples.

Results

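The genes described here are 10 components of the mammalian circadian clock, Clock, Arntl, Per1, Per2, Per3, Cry1, Cry2, Nr1d1, Bhlhe40 and Bhlhe41, picked by gene symbol from 53507 gene rows. All 10 had 1 row in each of the 8 count files and passed the filter on low counts that left 19936 genes for testing. Bhlhe41 passed through the postnatal libraries alone, since it does not reach the cutoff in the embryonic ones, and Per2 does not reach it in the hypoxic ones. The symbols were proposed with results of these libraries already known, among them the levels and fold changes between ages and oxygen conditions. The calls given for them are descriptions of their rows in the table-wide test, not independent evidence.

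RNA sequencing was performed on tdTomato-positive mouse brain cells, labelled as progenitor cells, in 8 libraries that form 4 groups of 2. The groups were embryonic day 13 (E13, wild type), embryonic day 15 (E15, wild type), postnatal day 12 after rearing in a normal atmosphere (P12 normoxia) and the same postnatal day following low oxygen (P12 hypoxia). For that group pups were kept at 10% oxygen for 8 days from P3, and the exposure ended at P11, before the P12 collection, with control and hypoxic foster mothers exchanged in between. The red fluorescent reporter tdTomato served to pick out the cells. The strain, the driver of the reporter, the brain region, the hour of day at collection and whether replicates came from separate animals are not given in the sources used here. P-values therefore measure only the spread between these libraries, which may be technical, and no position in the daily cycle can be assigned to any library.

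Levels are given as CPM, the counts of a gene per megacount of the library's total after that total was scaled for composition (TMM). The scaling factors were 1.32 to 1.38 in the embryonic libraries and 0.639 to 0.848 at P12, and a factor below 1 raises the CPM. Differences between the ages therefore include this shift. Libraries held 36252027 to 47084796 counts in gene rows, and a count of 0 allows up to 3 counts, or 0.0482 to 0.0537 normalised CPM in the embryonic libraries, for counting error only. Replicates were close in the embryo and far apart at P12, with correlations across genes of log2(CPM + 1) of 0.984 at E13, 0.988 at E15, 0.817 in P12 normoxia and 0.705 in P12 hypoxia. Of all counts, 14.2% to 14.9% in the embryo and 26.7% to 34.5% at P12 fell in the top 100 genes. Marker genes differed between ages as well. The summed level of 7 astrocyte genes (Aqp4, Gja1, Slc1a3, Aldh1l1, Gfap, S100b and Aldoc) was 16.5 to 41.5 CPM in the embryo and 8668 to 11688 CPM at P12, with all 7 at 1 CPM or more in every P12 library. The 7 cortical progenitor genes Pax6, Sox2, Nes, Hes5, Vim, Eomes and Neurog2 summed to 309 to 809 CPM in the embryo and 745 to 1134 CPM at P12, but not in 1 direction. Neurog2 (77.0 to 262 CPM in the embryo, 0.603 to 44.8 CPM at P12) and Eomes lay lower at P12, and Hes5 (3.68 to 6.65 CPM, then 242 to 695 CPM), Pax6 and Sox2 lay higher. In bulk RNA, fewer cells of a type and less RNA per cell cannot be told apart, and this holds for every level below.

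The circadian clock is a transcriptional feedback loop present in most cells. CLOCK and ARNTL (also called BMAL1) bind as a pair to E-box sequences and activate the Period, Cryptochrome, Nr1d1 and Bhlhe40/Bhlhe41 genes. PER and CRY proteins then repress that pair, NR1D1 (REV-ERB alpha) represses Arntl, and BHLHE40 and BHLHE41 (DEC1 and DEC2) bind E-boxes themselves and repress transcription. In brain, the suprachiasmatic nucleus is the central pacemaker, and astrocytes carry the same loop.

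Promoter windows from RefSeq (build GRCm38.p6, 250 bases before to 50 after each start) were searched for exact matches to such elements. Windows were present for 8 of the 10 members, 12 windows in all. Bhlhe40 and Per2 had no entry. The canonical E-box CACGTG reads the same on both strands and occurred in 2349 of 32851 windows (7.15%). Of the members it was found in Bhlhe41 at -153, Per1 at -166 and Cry1 at -60, counted in bases from the start. The noncanonical E-box CACGTT, searched on both strands and read as AACGTG on the other, occurred in 4.68% of windows. It was found in Cry1 at -79, Cry2 at -166 and Nr1d1 at -28, and overlaps CACGTG in none of the stretches printed. A D-box of the form TTATGTAA, bound by PAR bZIP factors, occurred in 0.938% of windows on either strand. Of the 8 members with a window it was found in Per3 alone, 2 times, at -205 and -158. The related TTACGTAA occurred in 0.119% of windows and in none of the members'. The core AGGTCA, recognised by NR1D1 and the ROR receptors, occurred in 16.3% of windows on either strand, among them those of Clock at -119, Arntl at 32 and Per1 at -137. The stretches printed are those that hold the E-box and D-box matches, 5′ to 3′ on the strand of the gene, with the matched letters in capitals. None of them covers an annotated exon. The starts used for Per1, Bhlhe41, Cry1, Clock and Arntl lie inside the annotated span of the gene. The Per1 stretch itself and the Clock and Arntl matches also lie inside it. The Bhlhe41 stretch stops at the base before the annotated gene begins. A match describes these letters in this window and is not a measured binding site. Sequence outside the windows was not searched, so a member without a match is not shown to lack the element.
Bhlhe41, chr6:145865559-145865670, minus strand: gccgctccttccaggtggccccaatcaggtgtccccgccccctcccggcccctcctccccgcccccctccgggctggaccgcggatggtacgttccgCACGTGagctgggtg
Per1, chr11:69098756-69098815, plus strand: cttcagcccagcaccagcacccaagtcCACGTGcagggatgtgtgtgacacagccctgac
Cry1, chr10:85185101-85185160, minus strand: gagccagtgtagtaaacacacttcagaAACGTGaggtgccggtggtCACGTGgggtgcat
Cry2, chr2:92434203-92434262, minus strand: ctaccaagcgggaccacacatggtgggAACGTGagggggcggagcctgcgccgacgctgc
Nr1d1, chr11:98775378-98775437, minus strand: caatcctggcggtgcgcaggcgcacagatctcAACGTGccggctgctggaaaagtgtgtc
Per3, chr4:151044811-151044882, minus strand: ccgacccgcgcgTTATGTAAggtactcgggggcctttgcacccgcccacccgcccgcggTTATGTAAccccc

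Between the embryo and P12, 4 members were called higher in normoxic cells (Arntl, Bhlhe40, Bhlhe41 and Per3) and 6 in hypoxic cells (those 4, Clock and Cry1), and 0 were called lower in either. Calls are those of edgeR's quasi-likelihood test at a Benjamini-Hochberg adjusted p below 0.05, each P12 group being set against the mean of E13 and E15. Over all 19936 genes tested, 17.8% were called in normoxic P12 cells, 12.1% higher and 5.68% lower. In hypoxic P12 cells 26.1% were called, 13.2% higher and 12.9% lower. The median log2 fold change of the 10 members was 2.85 in normoxia and 3.02 in hypoxia, beside -0.04 and -0.43 over all tested genes. Both comparisons use the same embryonic libraries, so their likeness is not independent. By TMM-scaled CPM, libraries of the P12 and embryonic groups did not overlap for 9 members in normoxia, 8 higher and Cry2 lower. Of all genes, 27.3% were separated as higher and 32.1% as lower. In hypoxia 6 were separated as higher and 0 as lower, beside 21.3% and 36.3% of all genes. DESeq2 called 7 members in normoxia, 6 higher and Cry2 lower, where it called 36.4% of all genes in both directions together. In hypoxia it called 6, all higher, where it called 45.1% in both directions together. Leaving out 1 embryonic or hypoxic library changed the edgeR counts of the members and those of all genes. Leaving out a normoxic library changed the counts of all genes but not those of the members. In normoxia 8 members, 7 higher and Cry2 lower, were called without hypoxia replicate 1 or without hypoxia replicate 2, beside 26.8% and 26.0% of all genes. Without E15 replicate 1 or E15 replicate 2 the count in normoxia was 2, both higher, beside 4.24% and 4.25%. In hypoxia all 10 were called without hypoxia replicate 1, 8 higher and 2 lower (Per2 and Nr1d1), beside 30.6% of all genes. Without hypoxia replicate 2 there were 8, 7 higher and Per1 lower, beside 25.4%. When any 1 of the E13 replicates 1 and 2 and the E15 replicates 1 and 2 was left out there were 4, all higher, beside 7.03% to 7.30% of all genes.

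**Figure D1:**
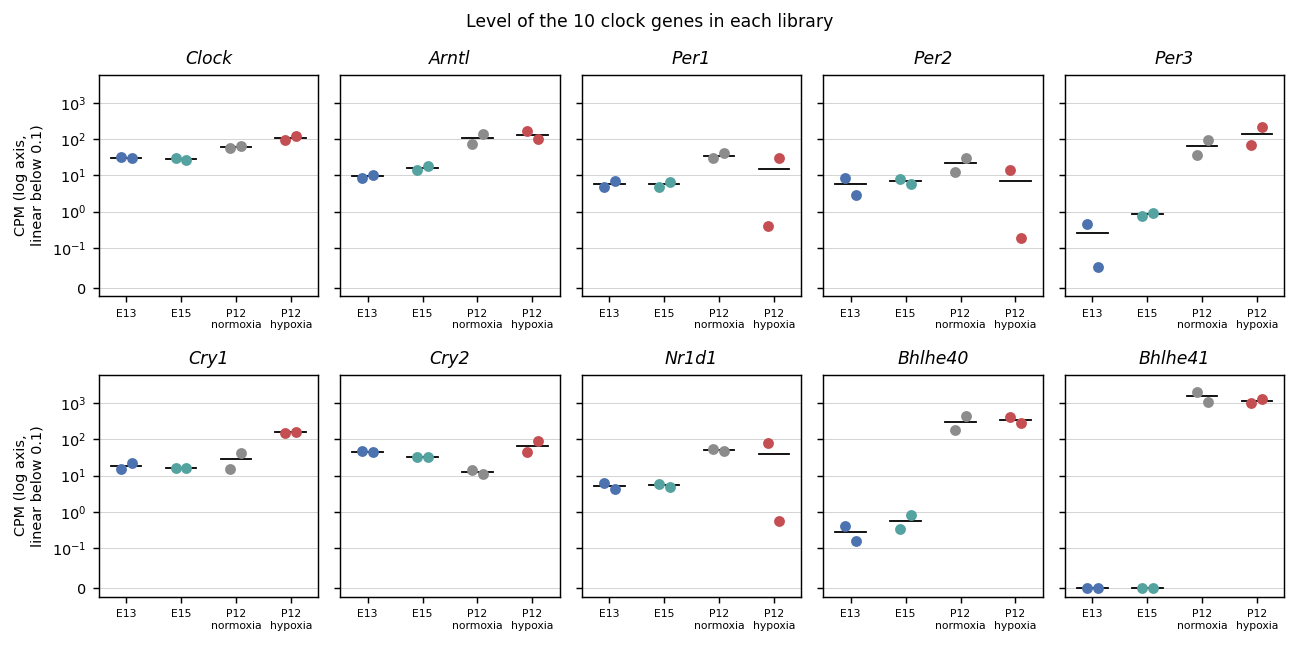
Level of each of the 10 clock genes in each of the 8 libraries, in CPM on a log axis that is linear below 0.1, with 1 point per library and a line at each group mean. Bhlhe41 sits at 0 in the 4 embryonic libraries and at 1021 to 1975 CPM in the 4 P12 libraries, while Per1, Per2 and Nr1d1 are far apart between the 2 hypoxic libraries.

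Bhlhe41, a basic helix-loop-helix repressor on chr6:145858243-145865558 (minus strand, 3 exon blocks, GRCm38), had 0 counts in all 4 embryonic libraries. In normoxic P12 cells it stood at 1975 and 1086 CPM (62191 and 33312 counts), and in hypoxic P12 cells at 1021 and 1307 CPM (30368 and 35332 counts). The 2 P12 groups overlapped, and both lay above every embryonic library. Against the limit of 3 counts per embryonic library, its mean level was at least 29400-fold higher in normoxic and at least 22400-fold higher in hypoxic cells. By CPM it ranked 98 and 140 among all gene rows in the normoxic libraries and 154 and 162 in the hypoxic ones. No count at all in the embryonic libraries was common, since 26482 gene rows had none, of which 393 were tested. Of those rows, 34 reached 10 CPM in every P12 library and 8 reached 100 CPM. Bhlhe41 ranked 1 among them by its lowest P12 level.

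Per kilobase of exon, Bhlhe41 averaged 228 CPM per kb in normoxia and 173 CPM per kb in hypoxia. It was the highest of the 10 members on this scale in each P12 library and held 77.1% and 49.4% of their summed level in the normoxic libraries and 43.0% and 53.1% in the hypoxic ones. The summed level of the 10 members was 18.1 to 20.8 CPM per kb in the embryo and 327 to 381 CPM per kb at P12. Cry2 was the highest member per kilobase in the embryo, with means of 7.29 CPM per kb at E13 and 5.08 CPM per kb at E15. On the opposite strand the annotated gene Gm43909 overlaps 1280 bp (19.1%) of the Bhlhe41 exons, and it had at most 1 count in any library.

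Bhlhe40, its paralog and a repressor of the same family (chr6:108660629-108666925, plus strand), stood at 0.411 and 0.160 CPM at E13 and 0.335 and 0.820 CPM at E15. In P12 cells it stood at 176 and 427 CPM in normoxia and 411 and 275 CPM in hypoxia. Every P12 library lay above every embryonic one, while E13 overlapped E15 and normoxia overlapped hypoxia. The log2 difference from the embryo was 9.52 ± 0.72 (SE) in normoxia and 9.71 ± 0.72 in hypoxia, with adjusted p = 0.000874 and 0.000783 by edgeR's quasi-likelihood test. Unlike Bhlhe41, Bhlhe40 was detected in every embryonic library, at 9 to 51 counts. Of the summed per-kilobase level of the pair, Bhlhe41 held 88.7% and 64.1% in normoxia and 63.5% and 76.9% in hypoxia.

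Of the activators, Arntl (chr7:113207465-113314126, plus strand), the partner of CLOCK, stood at 8.60 and 10.0 CPM at E13 and 13.8 and 18.3 CPM at E15. At P12 it stood at 73.7 and 138 CPM in normoxia and 164 and 102 CPM in hypoxia. The order was E13 below E15 below both P12 groups without overlap, and the 2 P12 groups overlapped. Against the embryo, the log2 difference was 3.11 ± 0.41 in normoxia (edgeR quasi-likelihood adjusted p = 0.00648) and 3.45 ± 0.42 in hypoxia (adjusted p = 0.0036). The normoxic call was lost when any 1 embryonic library was left out, with edgeR adjusted p of 0.0585 without E13 replicate 1, 0.0554 without E13 replicate 2, 0.0593 without E15 replicate 1 and 0.0517 without E15 replicate 2.

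Clock (chr5:76209868-76304792, minus strand) encodes the other protein of the activating pair. It stood at 32.2 and 29.2 CPM at E13, 30.9 and 26.0 CPM at E15, 56.0 and 65.0 CPM in normoxia and 93.7 and 121 CPM in hypoxia. E13 and E15 overlapped, every normoxic library lay above the embryonic ones, and both hypoxic libraries lay above the normoxic ones. Before scaling, the Clock counts in normoxia, 1763 and 1993, overlapped the 1615 to 1799 of the embryo. The separation of normoxia from the embryo therefore rests on the scaling. Relative to the embryo, the log2 fold change was 1.03 ± 0.34 in normoxia (edgeR adjusted p = 0.0863) and 1.86 ± 0.33 in hypoxia (adjusted p = 0.0132). The normoxic difference passed at adjusted p = 0.0353 without hypoxia replicate 1 and 0.0328 without hypoxia replicate 2 in the same edgeR test. The hypoxic call was lost at edgeR adjusted p = 0.0907 and 0.0979 without E13 replicate 1 or 2 and 0.088 and 0.098 without E15 replicate 1 or 2.

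The 3 Period genes encode the PER repressors, and Per3 was the one called. Per3 (chr4:151003652-151044665, minus strand) stood at 0.465 and 0.0535 CPM at E13, the latter from 3 counts, and at 0.740 and 0.932 CPM at E15. At P12 it stood at 37.0 and 91.5 CPM in normoxia and 70.1 and 212 CPM in hypoxia. The order was E13 below E15 below P12 without overlap, and the P12 groups overlapped. Set against the embryo, it differed on the log2 scale by 7.10 ± 1.004 in normoxia (edgeR adjusted p = 0.00796) and 8.23 ± 1.05 in hypoxia (adjusted p = 0.00429). The normoxic call was lost at edgeR adjusted p = 0.0725 without E15 replicate 1 and 0.0698 without E15 replicate 2.

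Per1 (chr11:69095217-69109960, plus strand) stood at 4.76 and 7.11 CPM at E13 and 4.81 and 6.62 CPM at E15. It stood at 29.8 and 40.1 CPM in normoxia, and at 0.404 CPM (12 counts) and 29.4 CPM (796 counts) in hypoxia replicates 1 and 2. Both normoxic libraries lay above all others, and 1 hypoxic library lay below every embryonic one while the other lay above them all. The log2 difference from the embryo was 2.58 ± 1.30 in normoxia (edgeR adjusted p = 0.221) and 1.36 ± 1.30 in hypoxia (adjusted p = 0.470), and neither was called. Leaving out hypoxia replicate 1 or 2 brought the normoxic difference past the threshold at edgeR adjusted p = 0.012 and 0.0138. The hypoxic difference was 2.34 without hypoxia replicate 1 and -3.86 without hypoxia replicate 2, each past the threshold (edgeR adjusted p = 0.0177 and 0.02).

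Per2 (chr1:91415982-91459324, minus strand) stood at 8.66 and 2.89 CPM at E13, 8.05 and 5.75 CPM at E15, 12.003 and 30.9 CPM in normoxia, and 14.2 CPM (422 counts) and 0.185 CPM (5 counts) in hypoxia replicates 1 and 2. Both normoxic libraries lay above the embryonic ones, and the hypoxic pair spanned the embryonic and lower normoxic values. Before scaling, the Per2 counts in normoxia, 378 and 948, overlapped the 162 to 484 of the embryo. Against the embryo, the log2 difference was 1.76 ± 1.39 in normoxia (edgeR adjusted p = 0.417) and 0.19 ± 1.44 in hypoxia (adjusted p = 0.952). The sign of the hypoxic value was negative under upper-quartile scaling, limma-voom and the fit with replicate number as a block. Without hypoxia replicate 1 the hypoxic value was -5.07 (edgeR adjusted p = 0.0424). Of the summed per-kilobase level of the 3 Periods, Per3 held 0.316% to 4.30% in the embryonic libraries and 34.4%, 43.5%, 74.5% and 80.7% in the P12 libraries. The embryonic remainder was shared by Per1 (35.6% to 71.7%) and Per2 (27.99% to 62.3%).

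The Cryptochromes encode the CRY repressors that act with PER. Cry1 (chr10:85131700-85185064, minus strand) stood at 14.8 and 22.9 CPM at E13, 16.4 and 15.9 CPM at E15, 15.1 and 41.8 CPM in normoxia and 145 and 164 CPM in hypoxia. The hypoxic libraries lay above all 6 others, and the other 3 groups overlapped. Relative to the embryo, the log2 fold change was 0.71 ± 0.50 in normoxia (edgeR adjusted p = 0.368) and 3.15 ± 0.50 in hypoxia (adjusted p = 0.00886). Without normoxia replicate 2 the normoxic value was -0.21. The hypoxic call was lost at edgeR adjusted p = 0.0638 and 0.0534 without E13 replicate 1 or 2 and 0.0646 and 0.0651 without E15 replicate 1 or 2.

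Cry2 (chr2:92403646-92434043, minus strand) stood at 46.2 and 45.9 CPM at E13, 32.5 and 31.6 CPM at E15, 14.6 and 11.3 CPM in normoxia and 43.7 and 90.5 CPM in hypoxia. It was the member that lay below the embryo in normoxia without overlap, and the hypoxic libraries overlapped E13. Set against the embryo, it differed on the log2 scale by -1.57 ± 0.50 in normoxia (edgeR adjusted p = 0.0836) and 0.80 ± 0.46 in hypoxia (adjusted p = 0.233). The normoxic value passed at edgeR adjusted p = 0.0151 without hypoxia replicate 1 and 0.0268 without hypoxia replicate 2, and the hypoxic value passed at 0.0366 without hypoxia replicate 1. Cry1 held 37.7% to 48.8% of the summed per-kilobase level of the pair in the embryo, 66.2% and 87.5% in normoxia, and 86.3% and 77.4% in hypoxia. The pair summed to 9.78 to 14.1 CPM per kb in the embryo, 6.85 and 14.3 CPM per kb in normoxia, and 50.4 and 63.3 CPM per kb in hypoxia.

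**Figure D2:**
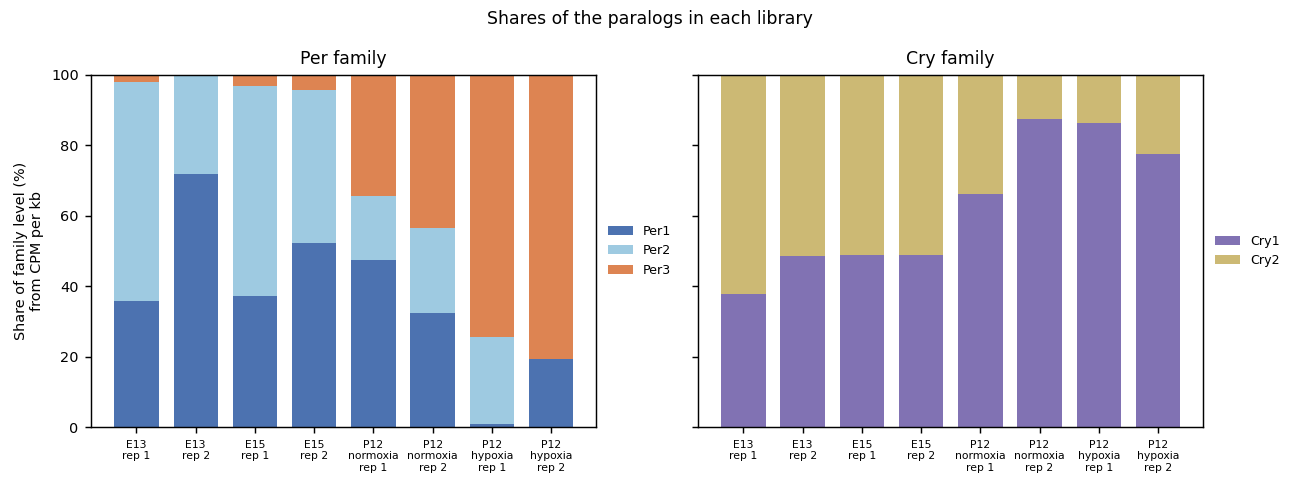
Share of each paralog in the summed per-kilobase level of the Period and Cryptochrome families, in percent of CPM per kb, with 1 stacked bar per library. Per3 makes up 0.316% to 4.30% of the Periods in the embryo and 34.4% to 80.7% at P12, and Cry1 makes up 37.7% to 48.8% of its pair in the embryo and 66.2% to 87.5% at P12.

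Nr1d1 (chr11:98767932-98775333, minus strand), a nuclear receptor that represses Arntl, stood at 6.08 and 4.37 CPM at E13 and 5.87 and 4.92 CPM at E15. It stood at 55.7 and 48.4 CPM in normoxia, and at 78.8 CPM (2342 counts) and 0.555 CPM (15 counts) in hypoxia replicates 1 and 2. Both normoxic libraries lay above the embryonic ones, and the hypoxic pair spanned every other library. The log2 difference from the embryo was 3.29 ± 1.40 in normoxia (edgeR adjusted p = 0.162) and 2.90 ± 1.39 in hypoxia (adjusted p = 0.172). The normoxic value passed at edgeR adjusted p = 0.00541 without hypoxia replicate 1 and 0.0044 without hypoxia replicate 2. The hypoxic value was -3.25 without hypoxia replicate 1 and 3.88 without hypoxia replicate 2 (edgeR adjusted p = 0.0157 and 0.00379). The exons of Nr1d1 share 263 bp (8.55%) with Thra on the opposite strand, and reads of that stretch cannot be assigned without the strand setting. Thra stood at 59.4 to 86.8 CPM in the embryo, 202 and 168 CPM in normoxia, and 122 and 183 CPM in hypoxia replicates 1 and 2.

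**Figure D3:**
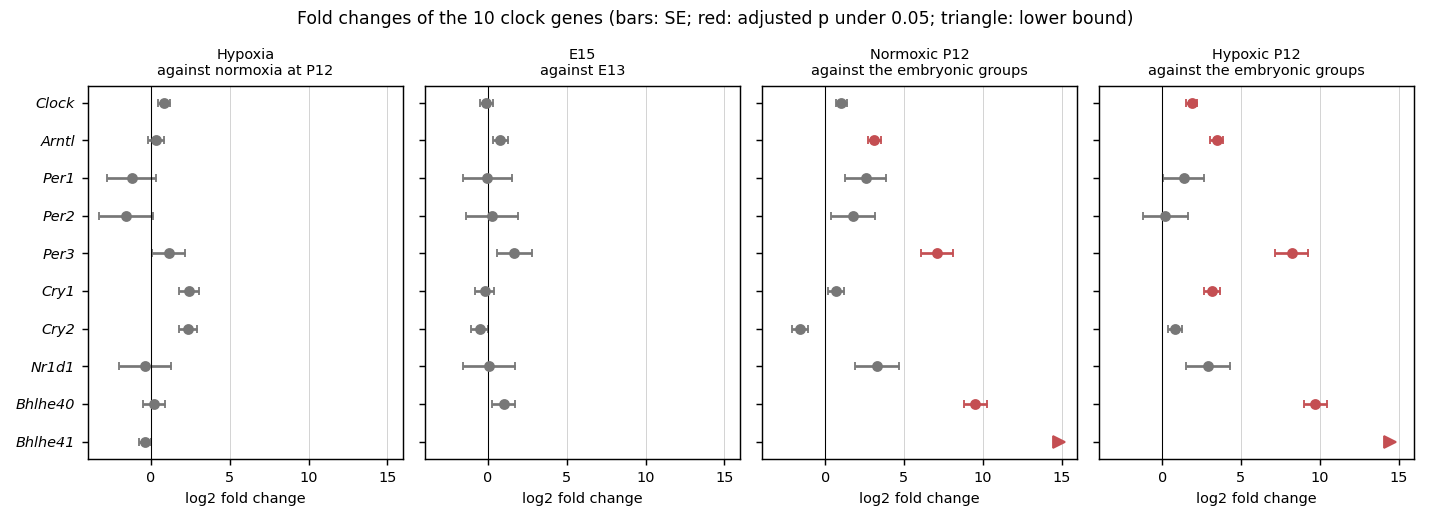
Log2 fold change of each member in the 4 comparisons from edgeR's quasi-likelihood fit of all 8 libraries, with bars for the standard error, red for an adjusted p under 0.05 and a triangle for the lower bound of Bhlhe41 against the embryo. Bhlhe40 lies at 9.52 and 9.71 against the embryo, no member is red between hypoxia and normoxia, and the widest bars belong to Per1, Per2 and Nr1d1.

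Hypoxic and normoxic P12 cells were compared to ask how chronic low oxygen changes these cells. Cry1 and Cry2 gave the highest values among the members, and 0 of the 10 members were called. Over all tested genes 3.02% were called, 0.196% higher and 2.82% lower. At an unadjusted p below 0.05 by edgeR there were 2 members, Cry1 and Cry2, beside 18.2% of all genes. DESeq2 called 3 members, all higher (Clock, Cry1 and Cry2), where it called 20.0% of all genes, 1370 higher and 2611 lower. limma-voom called 0 members and 0.0% of all genes. Without hypoxia replicate 1 edgeR called 3 members, Cry2 higher and Nr1d1 and Per2 lower, beside 13.5% of all genes. Without hypoxia replicate 2 it called 1, Per1 lower, beside 7.75%. The median log2 fold change of the members was 0.26, beside 0.00 over all genes.

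Cry1 was 2.44 ± 0.63 higher in hypoxia on the log2 scale (edgeR adjusted p = 0.127), and Cry2 2.37 ± 0.57 (adjusted p = 0.108). Cry2 passed without hypoxia replicate 1, at 2.91 and edgeR adjusted p = 0.0118. Clock was 0.83 ± 0.40 (edgeR adjusted p = 0.343). For these 3 genes each hypoxic library exceeded each normoxic one, which was so for 13.1% of all genes tested. Per1 was separated the other way, its 29.4 CPM in hypoxia replicate 2 lying just below the 29.8 CPM of normoxia replicate 1, and 20.1% of all genes were separated in that direction.

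None of the other members reached an unadjusted p of 0.05 between hypoxia and normoxia. Their log2 differences were 0.33 ± 0.49 for Arntl, 0.19 ± 0.68 for Bhlhe40, -0.39 ± 0.38 for Bhlhe41, and 1.13 ± 1.06 for Per3. The value for Bhlhe41 was 0.32 without normoxia replicate 1. Per1 gave -1.23 ± 1.58, Per2 -1.58 ± 1.71 and Nr1d1 -0.39 ± 1.66, and these 3 rest on which hypoxic library is kept. Nr1d1 was -6.44 without hypoxia replicate 1 (edgeR adjusted p = 0.0101) and 0.60 without hypoxia replicate 2. Per2 was -6.72 without hypoxia replicate 1 (edgeR adjusted p = 0.0462), and Per1 was -6.40 without hypoxia replicate 2 (adjusted p = 0.0216).

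The hypoxic replicates lay far apart for these 3 members. Nr1d1 was 142 times higher in replicate 1 than in replicate 2 (95% counting interval 85.9 to 254), and Per2 76.8 times (32.6 to 238). Per1 went the other way and was 72.9 times higher in replicate 2 (41.5 to 142). On the log2(CPM + 1) scale their gaps were 5.68, 3.68 and 4.44. Gaps of more than 3 occurred in 3 of 10 members in hypoxia and in 0 of 10 in each other group. Over genes with a group mean of 5 CPM or more, such gaps made up 34.2% in hypoxia, 16.3% in normoxia, 0.0546% at E13 and 0.0% at E15. The members' median gap in hypoxia, 0.853, was below that of all such genes, 1.45, and 3 of 10 is close to the share over all genes.

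**Figure D4:**
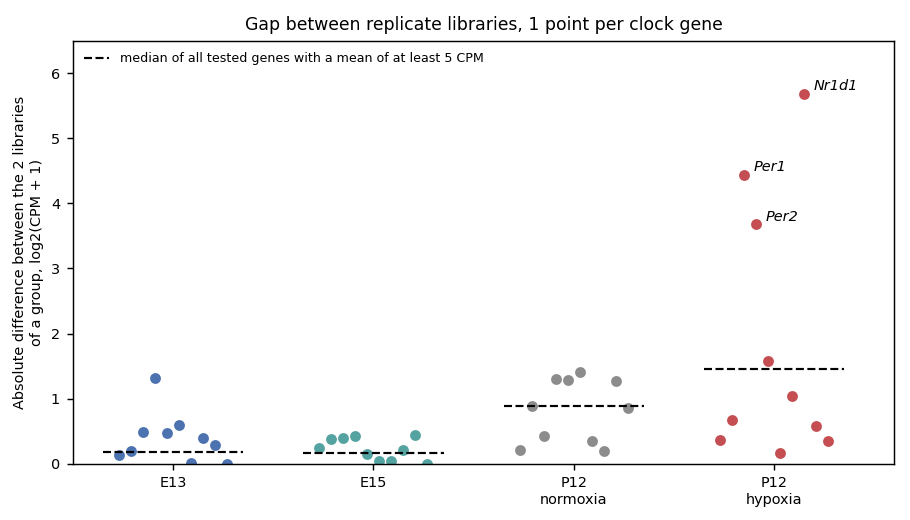
Gap between the 2 replicates of each group for each member, as the absolute difference in log2(CPM + 1), with the median over all tested genes of at least 5 CPM as a dashed line. In the hypoxic group Nr1d1, Per1 and Per2 lie at 5.68, 4.44 and 3.68, and that line goes from 0.177 at E13 to 1.45 in hypoxia.

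Between E15 and E13, the 2 embryonic stages, 0 of 10 members were called. edgeR called 0.0% of all tested genes in this comparison, and at an unadjusted p below 0.05 it gave 0 members beside 3.46% of all genes. That fit shares a gene's spread over all 8 libraries, so this test and the SEs given here include the spread between P12 replicates. It therefore does not show how the stages compare against the embryonic spread alone. Fitted to the compared groups alone, edgeR called 0 of 9 members and 229 of 18253 genes. In that fit 2 members, Cry2 and Arntl, passed the unadjusted threshold, as did 3688 genes. DESeq2 and limma-voom also called 0 members, where they called 1.88% and 4.69% of all genes. Arntl and Per3 lay higher at E15 without overlap and Cry2 lower, where 23.6% of all genes were separated as higher and 25.8% as lower. The log2 differences of these genes were 0.79 ± 0.50 for Arntl, 1.68 ± 1.10 for Per3 and -0.52 ± 0.54 for Cry2, and that of Bhlhe40, whose libraries overlapped, was 1.01 ± 0.73. Clock, Cry1, Per1, Per2 and Nr1d1 lay between -0.22 and 0.26. Bhlhe41 had no count at either stage and gave no value.

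A further 20 genes of the clock were listed, among them paralogs of members, output factors and regulators of clock protein stability, and all 20 were tested. In normoxic P12 cells 5 were called higher than in the embryo, and in hypoxic cells 6, beside the same background of 12.1% and 13.2% of all genes. Called lower were 2 in normoxia and 1 in hypoxia, beside 5.68% and 12.9% of all genes. Of the 20 log2 fold changes, 11 were positive and 9 negative in normoxia, and 13 were positive and 7 negative in hypoxia. The retinoic acid receptor-related orphan receptors RORA and RORB compete with NR1D1 at Arntl and activate it. Rorb stood at 4.28 to 6.35 CPM in the embryo, 2109 and 2016 CPM in normoxia, and 3669 and 2678 CPM in hypoxia, with log2 differences of 8.56 ± 0.25 and 9.18 ± 0.26. Rora stood at 0.402 to 1.32 CPM in the embryo, 273 and 178 CPM in normoxia, and 174 and 403 CPM in hypoxia, with 8.00 ± 0.66 and 8.36 ± 0.67.

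The ubiquitin protease gene Usp2, a clock output, stood at 0.282 to 3.52 CPM in the embryo and 134 to 215 CPM at P12, with log2 differences of 6.93 ± 0.45 in normoxia and 7.41 ± 0.46 in hypoxia. Nr1d2, the paralog of Nr1d1, stood at 8.85 to 24.4 CPM in the embryo, 81.1 and 92.2 CPM in normoxia and 115 and 40.1 CPM in hypoxia. Its log2 differences were 2.40 ± 0.52 and 2.24 ± 0.52, both called, whereas those of Nr1d1 were not. Hlf, a PAR bZIP factor that binds D-boxes, was called in hypoxia (7.38 ± 1.60) and not in normoxia (5.62 ± 1.503, edgeR adjusted p = 0.0528), at 0 to 1.11 CPM in the embryo, 41.8 and 11.3 CPM in normoxia and 83.6 and 96.2 CPM in hypoxia. Npas2, a paralog of Clock, had 3 counts over the 4 embryonic libraries, 34 and 279 counts in normoxia and 4 and 216 counts in hypoxia. Its ratio to the embryo was 388 (95% counting interval 131 to 1890) in normoxia and 298 (101 to 1458) in hypoxia. These pooled ratios rest mainly on replicate 2 of each group, since without normoxia replicate 2 the ratio was 83.1 (26.1 to 423) and without hypoxia replicate 2 it was 10.4 (1.75 to 70.7). Csnk1e, a kinase gene whose product phosphorylates PER, stood at 235 to 260 CPM in the embryo, 82.9 and 77.5 CPM in normoxia and 66.1 and 153 CPM in hypoxia. It was called lower in normoxia (-1.64 ± 0.39) and not in hypoxia (-1.19 ± 0.38, edgeR adjusted p = 0.0687). The difference between the 2 P12 groups was not called for any of the 20, with 3 at an unadjusted p below 0.05 by edgeR, beside 18.2% of all genes, and 5 called by DESeq2, beside 20.0%, so both shares were near those over all genes. The calls of Rorb, Rora and Usp2 held in both P12 groups when any 1 of the 8 libraries was left out. In normoxia those of Nr1d2, Npas2 and Csnk1e were lost without any 1 of the 4 embryonic or 2 normoxic libraries, at edgeR adjusted p of 0.0802 to 0.216. In hypoxia those of Nr1d2 and Npas2 were lost without any 1 embryonic library, at edgeR adjusted p of up to 0.247. That of Nr1d2 was lost also without hypoxia replicate 1 and that of Npas2 without hypoxia replicate 2, and that of Hlf was lost without either E15 library, at edgeR adjusted p of 0.128 and 0.134.

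**Figure D5:**
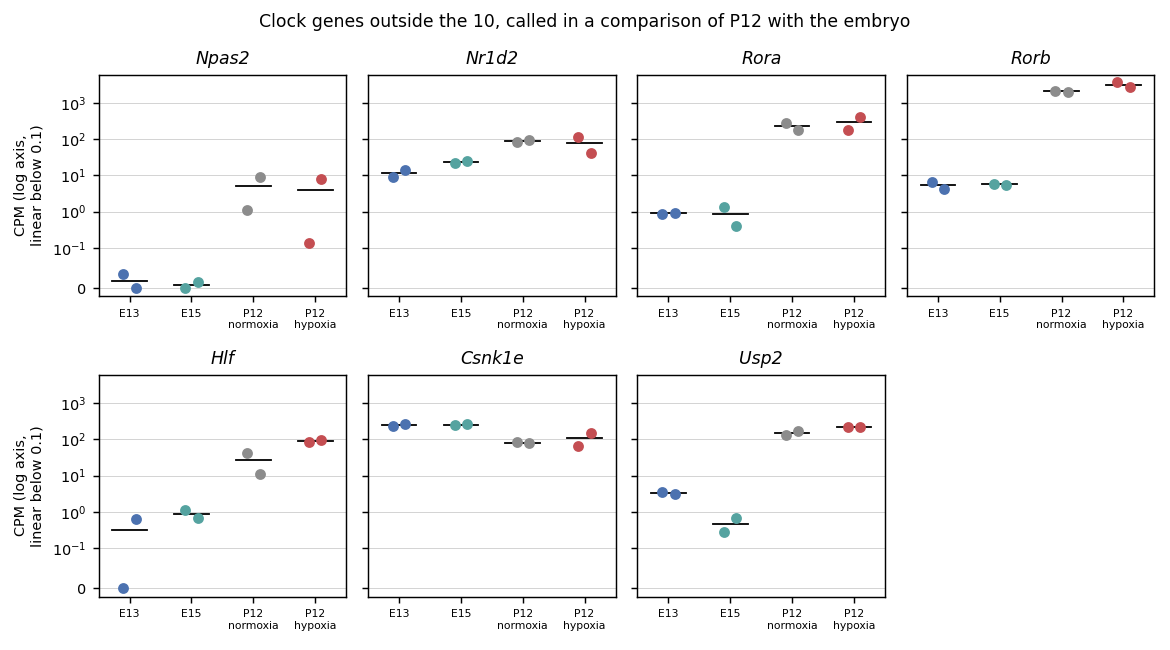
Level of 7 other clock genes called in a comparison of P12 with the embryo, in CPM on a log axis that is linear below 0.1, with 1 point per library and a line at each group mean. Rorb, Rora and Usp2 lie far above their embryonic values in all 4 P12 libraries.

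Cell type markers moved with the same contrasts. Beside the astrocyte genes given above, 8 neuronal genes summed to 1051 to 1536 CPM in the embryo, 462 and 459 CPM in normoxia, and 67.2 and 177 CPM in hypoxia. Within that list Tubb3 (749 to 994 CPM in the embryo, 56.9 to 155 CPM at P12) and Slc17a7 (59.3 to 152 CPM, then no count) lay lower at P12. Rbfox3 did so too (142 to 153 CPM, then 0.101 to 65.5 CPM). Gad1, Gad2, Syt1 and Snap25 lay higher in normoxia than in the embryo. Gad2 stood at 0 to 0.123 CPM in the embryo and 50.5 to 74.3 CPM in normoxia, and Snap25 at 33.2 to 65.1 CPM and 85.8 to 87.6 CPM. The 7 oligodendrocyte lineage genes summed to 12.6 to 37.0 CPM in the embryo, 322 and 551 CPM in normoxia, and 1335 and 2527 CPM in hypoxia. Not every gene of that list followed the sum. Mbp in normoxia (17.3 and 58.8 CPM) overlapped the embryo (6.06 to 33.2 CPM). Mog stood at 0.250 to 1.17 CPM in the embryo and 0 to 1.49 CPM at P12. The astrocyte, neuronal and oligodendrocyte lineage sums separate the ages, as Bhlhe41, Bhlhe40, Arntl and Per3 do. The neuronal and oligodendrocyte lineage sums also separate the hypoxic from the normoxic libraries, as Cry1, Cry2 and Clock do. The astrocyte sum does not, at 8982 and 9212.5 CPM in normoxia and 11688 and 8668 CPM in hypoxia. Of the neuronal and oligodendrocyte lineage genes, Tubb3, Slc17a7, Sox10 and Mog did not separate the P12 groups. The part of these sums in those results was not tested. Of 12 microglial genes, C1qa, C1qb, Aif1, Siglech and Fcrls had 0 counts in all 4 P12 libraries, none of the 12 reached 1 CPM in every P12 library, and the sum was 0 to 88.1 CPM. The 6 endothelial genes summed to 0 to 2.39 CPM at P12.

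The genes whose pattern lay closest to that of Bhlhe41 were sought over the 8 libraries by the root mean square difference of log2(CPM + 1) after each gene was centred on its own mean. The measure is a description of 8 libraries from 2 embryonic stages and 1 postnatal age, and its median over 19935 genes was 5.33. Other members, genes with provisional names, immunoglobulin genes and genes on the sex chromosomes count in that median but were passed over in naming genes. The 5 closest of the remaining genes were Dusp3 (0.187), Sdc4 (0.241), Spry2 (0.305), Rgs5 (0.323) and Gfap (0.368). Dusp3, a phosphatase gene, stood at 0.0528 to 0.374 CPM in the embryo and 1218 to 1858 CPM at P12. Rgs5, a regulator of G protein signalling, had 0 counts in the embryo like Bhlhe41 and stood at 1021 to 2501 CPM at P12. Gfap, the astrocyte intermediate filament gene, reached 0.0179 CPM at most in the embryo and 647 to 1176 CPM at P12.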

How the data were processed

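Per the labels, 400 pg of total RNA from tdTomato-positive brain cells entered each library (RNeasy micro, NEBNext Ultra II). The authors deposited raw counts per gene for each library. Tools named by the submitters' processing notes are Subread, STAR and cutadapt, on GRCm38. Versions, annotation, strand setting and multimapping are not given in the sources used here. Of 55487 rows, 1980 named no gene (0.205% to 0.266% of counts) and were left out. Coordinates and exon lengths came from GENCODE M21 (GRCm38), which matched 96.6% of gene rows.

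Counts were scaled by TMM and filtered with filterByExpr (minimum count 10, minimum total 15). edgeR 4.0.16 in R 4.3.3 fitted the 4 groups over all 8 libraries (quasi-likelihood, 4 residual degrees of freedom, no replicate block, two-sided), with Benjamini-Hochberg adjustment over all 19936 tested genes. The SE of a log2 fold change was derived from that fit. Scaled counts per library are CPM. Alternatives were DESeq2 1.42.0, limma 3.58.1 (voom with quality weights), upper-quartile or relative log expression scaling, no filter, a replicate block, the compared groups alone, and leaving out each library. With 1 library left in a group, it is assumed to vary like the others. The fit was also run on simulated counts in which a gene's spread was the same in every group. That run therefore does not bear on calls where P12 replicates lie far apart.

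Members and lists were chosen with earlier results of these data known. Named genes are all members, genes overlapping them, up to 6 called genes of the other clock list per comparison, and the 5 closest to Bhlhe41. For the last, the kinds of gene passed over are those given above. 1 gene so chosen is not reported here. Replicate numbers are those of the sample titles, from which the numbers in the P12 file names differ. Equal numbers were not treated as pairs, since the labels do not state a pairing. Deviations between libraries of equal number correlated -0.0444 to 0.0137 over 6 pairs of groups, which does not exclude a pairing. Summaries and figures used Python 3.11.15, pandas 2.3.3, scipy 1.17.1 and matplotlib 3.10.9.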

Additional observations from a re-analysis of the deposited data

How the results depend on the processing

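Of the members' results over all alternatives, 524 kept their sign and side of the threshold, 21 changed sign, 26 kept their sign and newly passed, and 14 kept it and no longer passed. Of the 21 that changed sign, 3 also newly passed. The calls of Bhlhe40 and Bhlhe41 in both P12 groups, and of Arntl and Per3 in hypoxic P12 cells, held in all 15 alternatives. All are refits of the same counts. For Bhlhe41, with 0 counts in every embryonic library and tested through the P12 libraries alone, this adds no support. The cause of the changes listed here was not tested. The number of genes called between hypoxia and normoxia went from 602 to 3981 with DESeq2, 0 with limma-voom, 295 without a filter, 1 with a replicate block, 0 with the compared groups alone, and 0 to 3018 when 1 library was left out. For E15 against E13 it went from 0 to 374 with DESeq2, 935 with limma-voom and 229 with the compared groups alone. For normoxic P12 cells against the embryo it went from 3541 to 7252 with DESeq2, 1705 with the block, 6731 with the compared groups alone and 928 to 5990 without 1 library. For hypoxic P12 cells against the embryo it went from 5208 to 9001 with DESeq2, 2390 with limma-voom, 2868 with the block and 1562 to 6836 without 1 library. The replicate block changed no member's call.

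Among the 20 other clock genes, calls between hypoxia and normoxia went from 0 to 5 with DESeq2 and 0 to 2 without 1 library, and for E15 against E13 from 0 to 1 with DESeq2 and 1 with limma-voom. In normoxic P12 cells they went from 7 to 12 with DESeq2, 4 without a filter, 3 with the block and 3 to 10 without 1 library, and in hypoxic P12 cells from 7 to 4 with limma-voom, 3 with the block and 3 to 9 without 1 library. In hypoxic P12 cells against the embryo Per1 was -0.91 with limma-voom, and Per2 was -1.58 with limma-voom, -0.12 with upper-quartile scaling and -0.36 with the block. Without 1 library, the log2 differences that changed sign ranged, in hypoxia against normoxia, from -0.12 to 0.97 for Bhlhe40, -0.76 to 0.32 for Bhlhe41 and -6.44 to 0.60 for Nr1d1. For E15 against E13 they ranged from -0.24 to 0.0112 for Clock, -0.31 to 0.26 for Per1, -0.33 to 1.26 for Per2, -0.50 to 0.13 for Cry1 and -0.18 to 0.31 for Nr1d1. Against the embryo they ranged from -0.21 to 1.12 for Cry1 in normoxic cells, and in hypoxic cells from -3.86 to 2.34 for Per1, -5.07 to 1.16 for Per2 and -3.25 to 3.88 for Nr1d1. Upper-quartile scaling moved the median of all tested genes from -0.43 to -0.75 in hypoxic and from -0.04 to -0.24 in normoxic P12 cells against the embryo, and relative log expression moved the former to -0.22. With 2 libraries in a group and P12 replicates far apart, a difference that was not called is not shown to be absent.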
